A study of Mus musculus with 3 samples.

Results

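Acetylation of histone H3 at lysine 27 (H3K27ac), which is found on promoters and enhancers in use, was examined around 10 genes of interleukin-6 (IL-6) family signalling in mouse pancreatic spheroids. The genes were the ligand Il6, the receptor chains Il6ra, Il6st, Lifr, Osmr and Il11ra1, the kinases Jak1 and Jak2, the transcription factor Stat3 and the feedback inhibitor Socs3. They are 10 of 21887 protein-coding genes, and every H3K27ac peak within 100 kb of their bodies (GRCm38) was taken. This gave 86 of the 38793 peaks of the post-caerulein list and 81 of the 37765 peaks of the untreated list. No peak lay in the windows of 2 of these genes. Peak positions played no part in choosing the genes, although results of these data were known when the list was drawn up.

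Both spheroid cultures were pancreatic epithelial cells of wild-type C57BL/6J mice, grown in the same kind of medium with epidermal growth factor, hydrocortisone and cholera toxin. One came from untreated mice and the other from mice that had received caerulein, an analogue of the hormone cholecystokinin that overstimulates acinar cells and causes pancreatitis. The labels give no dose, interval, age or number of mice, and do not say whether animals were pooled. Each condition had 1 H3K27ac library, and the third library of the series, an input of untreated spheroids, was not used here. The comparison asks which regulatory regions of the pathway carry H3K27ac in epithelium taken after caerulein and in epithelium never exposed to it. With 1 library per condition there is no replicate error, no test was possible, and every difference below is one between these 2 libraries. A change in the share of cells that carry a mark and a change of the mark per cell cannot be told apart.

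Most IL-6 family cytokines bind a ligand-specific receptor chain and gp130, the shared signal-transducing chain encoded by Il6st. Janus kinases bound to the receptor tails phosphorylate STAT3, which enters the nucleus and switches on target genes. Socs3 is one of these targets, and its product blocks the receptor and kinases in a negative feedback loop. In the pancreas the pathway is known for its part in pancreatitis, in the conversion of acinar cells to duct-like cells, and in the growth of early neoplastic lesions.

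The promoters of 4 members are shown because the results below turn on their transcription starts. The sequences are from RefSeq (GRCm38.p6), each with the 250 bases before the start, written 5′ to 3′ on the strand of the gene. All 10 members had at least 1 start in this table, and Lifr and Il11ra1 had a second one. Il6 (chr5:30012864-30013113, plus strand) had the only first-listed start without a peak in either list. In its sequence the capitals mark a TGANTCA match, the AP-1 element, at bases -249 to -243 and a kappa-B motif, the element of NF-kB factors, at bases -44 to -35.
Il6: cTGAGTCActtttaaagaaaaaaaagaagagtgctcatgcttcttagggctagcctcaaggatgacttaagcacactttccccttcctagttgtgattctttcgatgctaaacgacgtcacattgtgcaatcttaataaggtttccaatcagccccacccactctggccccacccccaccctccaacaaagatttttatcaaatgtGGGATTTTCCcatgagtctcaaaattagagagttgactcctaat
Socs3 (chr11:117969367-117969616, minus strand) had the only promoter of the 10 genes with TTCNNNGAA, the palindrome that STAT factors bind, and the capitals mark it at bases -154 to -146.
Socs3: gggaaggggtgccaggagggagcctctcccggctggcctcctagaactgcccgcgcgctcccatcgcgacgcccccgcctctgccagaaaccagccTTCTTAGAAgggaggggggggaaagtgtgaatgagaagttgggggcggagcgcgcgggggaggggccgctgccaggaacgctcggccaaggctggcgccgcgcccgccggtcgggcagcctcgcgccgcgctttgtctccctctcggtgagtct
Jak2 (chr19:29251553-29251802, plus strand) is shown for a break in the untreated list: 2 untreated peaks meet here, and the capitals mark the 36 bases between them, at bases -72 to -37 from the start.
Jak2: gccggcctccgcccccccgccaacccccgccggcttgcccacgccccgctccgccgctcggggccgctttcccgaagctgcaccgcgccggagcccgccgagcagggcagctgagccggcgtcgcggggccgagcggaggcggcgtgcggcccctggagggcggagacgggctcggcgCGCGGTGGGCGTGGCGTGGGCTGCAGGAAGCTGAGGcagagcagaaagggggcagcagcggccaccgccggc
Lifr (chr15:7129322-7129571, plus strand) is shown because its start lay in a site that was 1.75-fold longer in the post-caerulein list, and none of its bases are capitalised.
Lifr: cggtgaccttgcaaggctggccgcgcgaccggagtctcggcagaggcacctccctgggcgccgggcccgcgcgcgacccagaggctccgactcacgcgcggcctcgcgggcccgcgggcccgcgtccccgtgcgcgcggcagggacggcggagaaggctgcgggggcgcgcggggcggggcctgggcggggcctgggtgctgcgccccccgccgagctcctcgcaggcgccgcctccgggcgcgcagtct

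These promoters differed widely in base composition. Over the 300-base windows of the table, which add 50 bases after the start, the Lifr promoter held 53 CpG dinucleotides at 81.3% GC and the Jak2 promoter 44 at 81.0% GC. The median of 21263 promoter windows was 13 CpG and 56.3% GC. Socs3 held 31 CpG, Il6st 33, Jak1 29, Il6ra 25, Osmr 22, Stat3 15 and Il11ra1 7. The Il6 promoter was the poorest of the 10 first-listed ones, with 3 CpG and 44.0% GC. The second starts of Lifr and Il11ra1 were also CpG-poor (4 and 3 CpG), and no peak of either list covered their windows. The 9 first-listed windows other than Il6 were covered over all 300 bases in both lists, except that the untreated peaks covered 264 bases at Jak2. Motifs were searched in the 300-base windows on both strands. TTCNNNGAA occurred in 1 of the 12 member windows and in 7.69% of all windows. TGANTCA occurred in 2, at Il6 and, 3 to 9 bases after the start, at Osmr, and in 6.99% of all windows. The kappa-B motif occurred in 1, at Il6, and in 9.25% of all windows. A match describes letters in a window and not a bound site.

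The labelled cell type was checked on marker genes with a start in the same table. Of 6 ductal epithelial marker genes, all 6 had a peak within 1 kb of the start in both lists (Krt7, Krt8, Krt18, Epcam, Muc1 and Cftr). Of 8 acinar markers only Bhlha15 was marked, in both lists, and no mesenchymal (3), endothelial (4) or endocrine (5) marker was marked in either. Of 4 immune markers, Ptprc, which encodes the leukocyte antigen CD45, was marked in the post-caerulein list alone. Its part in the results below was not tested. Both lists were alike in size: the post-caerulein peaks covered 140.4 Mb at a median width of 2495 bp, and the untreated peaks 134.6 Mb at 2483 bp. The read depth of the libraries is unknown, because the lists hold no counts.

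Most H3K27ac sites near the 10 genes were present in both conditions. After overlapping peaks were joined, the windows held 90 sites, of which 70 were shared, 16 were seen in the post-caerulein list alone and 4 in the untreated list alone. A peak is called list-only here when no peak of the other list overlaps it by 1 bp. The 16 post-caerulein-only peaks were 18.6% of the 86 (exact Clopper-Pearson 95% interval 11.0 to 28.4, counting error only), near the 16.7% found among all post-caerulein peaks within 100 kb of a protein-coding gene. The 4 untreated-only peaks were 4.94% of the 81 (1.36 to 12.2), below the corresponding 13.8%. Without Jak1, left out after its values were seen because it held 6 of the 16, the post-caerulein share was 13.7% (10 of 73; 6.77 to 23.8) and the untreated share 4.11% (3 of 73; 0.856 to 11.5). Set against the background of each list, the post-caerulein share was thus near it with Jak1 and without, and the untreated share was under it both times.

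All of the list-only peaks were weak and narrow within their own list. The score of a peak is the caller's own and ranks peaks within 1 list only. Post-caerulein-only peaks scored 50.21 to 228.37, against a list median of 526.37, and were 753 to 2282 bp wide. Of these 16 peaks, 12 scored under 100, where the lowest score of the list is 50.01. Untreated-only peaks scored 53.89 to 227.11, against a list median of 681.38, and were 814 to 1617 bp wide. None of the 20 list-only peaks reached the median score of its list, and none lay over a transcription start of a member. The scores and positions of list-only peaks over the whole lists are not given. These values therefore do not set the members apart from other genes. Of the post-caerulein-only peaks, 12 had the member as the nearest gene and 9 lay inside its body. The remaining 4 lay nearest to Ankrd55 (2 peaks, in the Il6st window), Cntfr (Il11ra1 window) and Atp6v0a1 (Stat3 window).

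**Figure D1:**
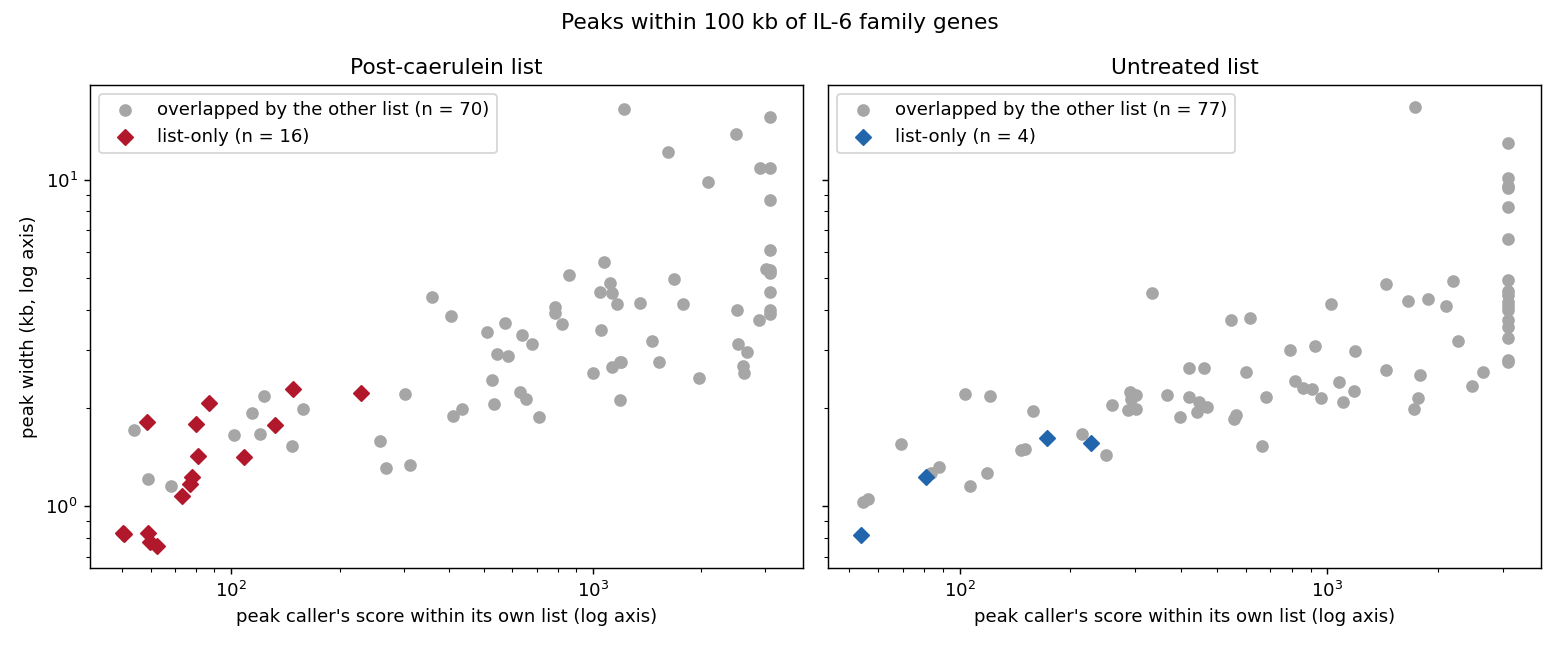
Score within its own list against width in kb, both on log axes, for each peak in the windows of the 10 genes, post-caerulein (86 peaks) on the left and untreated (81 peaks) on the right. List-only peaks (diamonds, 16 and 4) sit at the low-score, narrow end of each panel, with no score above 228.37.

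At 9 of the 10 genes the transcription start had a peak within 1 kb in both lists, and at Il6 in neither. Over the 17492 genes with a start in the table, 54.9% were marked in the post-caerulein list and 54.1% in the untreated list. No member gained or lost a marked start between the lists. Shared sites, counted as whole peaks, came to 293.8 kb after caerulein and 258.1 kb without, and list-only peaks to 22.3 and 5.2 kb. Of the 70 shared sites, 49 (70.0%) were longer in the post-caerulein list, against 55.7% of all 30224 shared sites. By at least 1.5-fold, 12 sites (17.1%) were longer in the post-caerulein list, against 8.49% of all shared sites. The opposite held for 1 site, at Stat3, against 5.52%. The median length ratio was 1.07 at the members and 1.02 over all shared sites, where the middle 90% ran from 0.651 to 1.71.

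Summed over the windows, the covered length was 313.3 kb in the post-caerulein list and 261.7 kb in the untreated list. The lists as a whole differed less, by a ratio of 1.04. Counted as whole peaks, both shared sites (293.8 against 258.1 kb) and list-only peaks (22.3 against 5.2 kb) contributed. The mean peak width in the windows was 3675 bp against 3251 bp, whereas over the whole lists it was 3620 bp against 3565 bp. Part of this gap in mean width reflects splitting. Several shared sites were 1 post-caerulein peak and 2 untreated peaks, and none the reverse, as at the Jak2 start (6111 against 6047 bp covered). How often shared sites are split in this way over the whole lists is not given. The splitting is therefore not read as a trait of the members. Per gene, 8 members had more covered length in the post-caerulein list and 2 (Il6 and Stat3) in the untreated list. No share over all genes is given for these counts, so they are not read as particular to the members. The median log2 ratio, with 1 kb added to both lengths, was 0.27 over the members and 0.00 over all genes. Over genes with a peak in the window it was 0.015. Only Jak1 passed a 1.5-fold difference towards the post-caerulein list (5.24% of all genes) and no member passed it towards the untreated list (5.03%). Inside the gene bodies alone, Jak1, Lifr and Osmr passed it towards the post-caerulein list, 3 of the 9 members with a peak in the body, against 9.16% of the 13321 such genes. None passed it towards the untreated list (7.66%).

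By list-only peaks, 7 members had more in the post-caerulein list (30.0% of all genes did), none had more in the untreated list (26.8%), and Il6, Osmr and Jak2 were even. For 5 of the 7 the balance was a single weak peak. Counting only peaks that scored at least 100, a limit chosen after the data were seen, 3 members had more in the post-caerulein list and 2 in the untreated list. No share over all genes is given at this limit. It was the same number in both lists, although scores rank peaks within 1 list only. At or above the median score of each list, no member had a list-only peak at all.

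**Figure D2:**
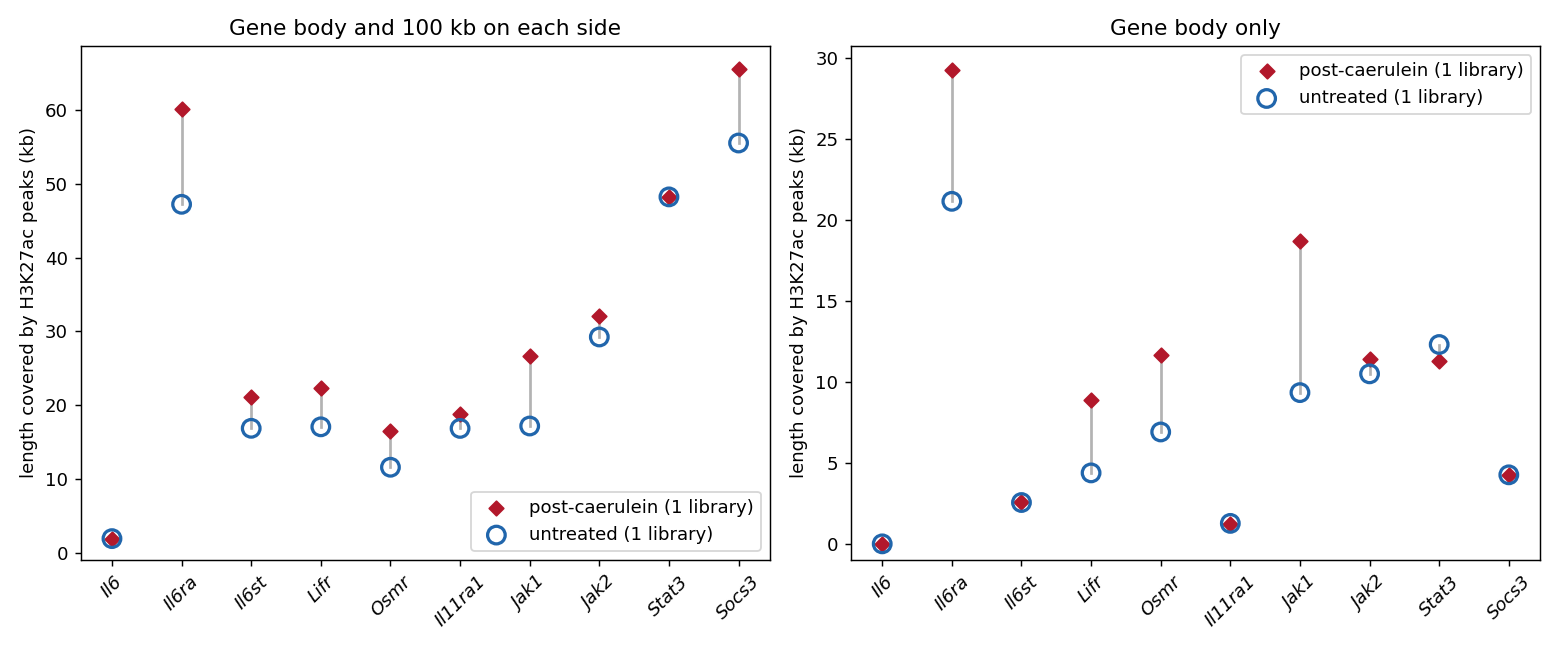
Length covered by H3K27ac peaks, in kb, for each gene in the window of 100 kb on either side of the body and in the body itself, with filled diamonds for the post-caerulein library and open circles for the untreated one (1 library each, so no error bars). Jak1, Osmr, Lifr and Il6ra show the wider gaps in the body panel, and at Il6 and Stat3 the symbols nearly coincide in the window panel.

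The ligand gene Il6, which encodes interleukin-6, carried no H3K27ac peak over its body (chr5:30013114-30019975) in either list. A single site lay in its window of 206.862 kb, 59.3 kb downstream of the start, over Tyms, the thymidylate synthase gene. It was 1895 bp long in the post-caerulein list and 1908 bp in the untreated list. Covered length was thus 0.92% of the window in both lists, against a median of 7.48% and 7.44% over all genes. Neither list thus had a peak over the Il6 promoter printed above, with its AP-1 and kappa-B letters.

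Il6ra encodes the IL-6 receptor alpha chain, which binds IL-6 before gp130 joins the complex. Its window held 60.19 kb of covered length in the post-caerulein list and 47.24 kb in the untreated list, or 24.7% and 19.4% of the window, where the median gene had 7.48% and 7.44%. The start site was 5291 bp long after caerulein and 4559 bp without. The body of the gene held a broad block 3.651 to 19.238 kb downstream of the start, covered by 1 peak of 15588 bp in the post-caerulein list (chr3:89893958-89909545). The untreated list had 2 peaks there, of 9589 and 1547 bp. Further into the gene, a site of 4383 against 2192 bp was 2.00-fold longer in the post-caerulein list and a site of 3351 against 1944 bp 1.72-fold longer. Beyond the far end of the gene a site of 4842 against 2658 bp was 1.82-fold longer. The 1 list-only peak (chr3:89868132-89869548, 1417 bp, post-caerulein) filled part of a 5.99 kb gap of the untreated list between these last 2 sites. Not every site was longer after caerulein: a body site of 2126 against 2393 bp, and a site at Ube2q1 of 3136 against 3978 bp, were longer in the untreated list.

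Il6st encodes gp130, the chain shared by most receptors of the family. Its start site was 5189 bp in the post-caerulein list and 4095 bp in the untreated list, 1.27-fold, and this was the only shared site over the gene. The rest of the acetylated length lay upstream, near Ankrd55, where a region of 9863 bp in 1 post-caerulein peak matched 2 untreated peaks of 4784 and 4169 bp. The list-only peaks went both ways. Post-caerulein-only peaks of 2068 bp (score 87.09) and 1782 bp (score 79.91) lay nearest to Ankrd55, and an untreated-only peak of 1617 bp (score 172.89) lay 38.2 kb upstream of the Il6st start. Within 50 kb of the body the balance turned to the untreated side (1 peak against none), and body coverage was equal at 2.56 and 2.55 kb.

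Lifr encodes the receptor chain for leukaemia inhibitory factor, which pairs with gp130. All 6 of its shared sites were longer in the post-caerulein list, by 1.07- to 1.75-fold. The longest step was at the start itself, chr15:7128108-7132103, whose sequence is printed above: 3996 bp after caerulein and 2289 bp without, with the extra length mainly on the downstream side. The post-caerulein peak reached 2.531 kb past the start and the untreated peak 0.952 kb. This ratio of 1.75 stood at percentile 95.4 of all shared sites. This first-listed start, at chr15:7129572, lies inside the gene body. The body begins upstream of it at chr15:7090610, where neither list had a peak within 1 kb. A second site 6.893 kb downstream of the first-listed start measured 2876 against 2088 bp, and one at Egflam, 167.008 kb away, 3642 against 2245 bp. Covered length in the body was 8.87 kb against 4.38 kb, 1.84-fold with 1 kb added to both. Over the window the log2 ratio was 0.37 with all peaks and 1.05 when lower-scored peaks, under each list's median, were dropped. The medians differ, 526.37 after caerulein and 681.38 without. At shared sites this dropped untreated peaks scoring 617.89, 448.99 and 289.97, and kept their post-caerulein partners, scoring 787.07, 582.08 and 574.32. The list-only peaks were 3 post-caerulein-only ones of 777, 825 and 1171 bp, with scores of 59.64, 58.84 and 77.13, and 1 untreated-only one of 1564 bp at Egflam with a score of 227.11. Held to a score of 100, the same number in both lists despite their different medians, this balance turned to the untreated side.

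Osmr encodes the oncostatin M receptor chain and lies next to Lifr on chromosome 15, with 15.642 kb between the windows. It had no list-only peak, and its difference lay entirely in the lengths of shared sites. The 4 sites over its body were all longer in the post-caerulein list. At the start the site measured 2563 against 2145 bp, a ratio of 1.19. Next to it, 1.342 to 3.390 kb downstream of the start, the site measured 2049 against 1265 bp, a ratio of 1.62. The site 13.580 to 18.530 kb downstream of the start (chr15:6855783-6860733) measured 4951 against 1881 bp. This ratio of 2.63 was the highest of the 70 shared sites and stood at percentile 99.2 of all shared sites. The farthest measured 2763 against 1982 bp. Together they came to 12326 bp after caerulein and 7273 bp without, a ratio of 1.69. Over the window the log2 ratio was 0.47 with all peaks and 1.23 when lower-scored peaks, under each list's median, were dropped. At the body sites other than the start, this dropped the untreated peaks (scores 302.26, 398.15 and 119.13). Their post-caerulein partners (1199.8, 1679.65 and 534.95) were kept. The value of 1.23 thus counts as uncovered some sites that had a peak in both lists. The site outside the gene, at Rictor, measured 4156 against 4312 bp and so was not longer after caerulein.

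Il11ra1 encodes the alpha chain for interleukin-11. Its start site was 2556 bp in the post-caerulein list and 2304 bp in the untreated list, and no shared site of its window differed by more than 1.13-fold in either direction. The 1 post-caerulein-only peak (1772 bp, score 132.71) lay 94.4 kb upstream, over Cntfr, which encodes the receptor chain for ciliary neurotrophic factor. Near-identical copies of the Il11ra gene lie close together in the mouse genome, so how reads were placed among them is uncertain.

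**Figure D3:**
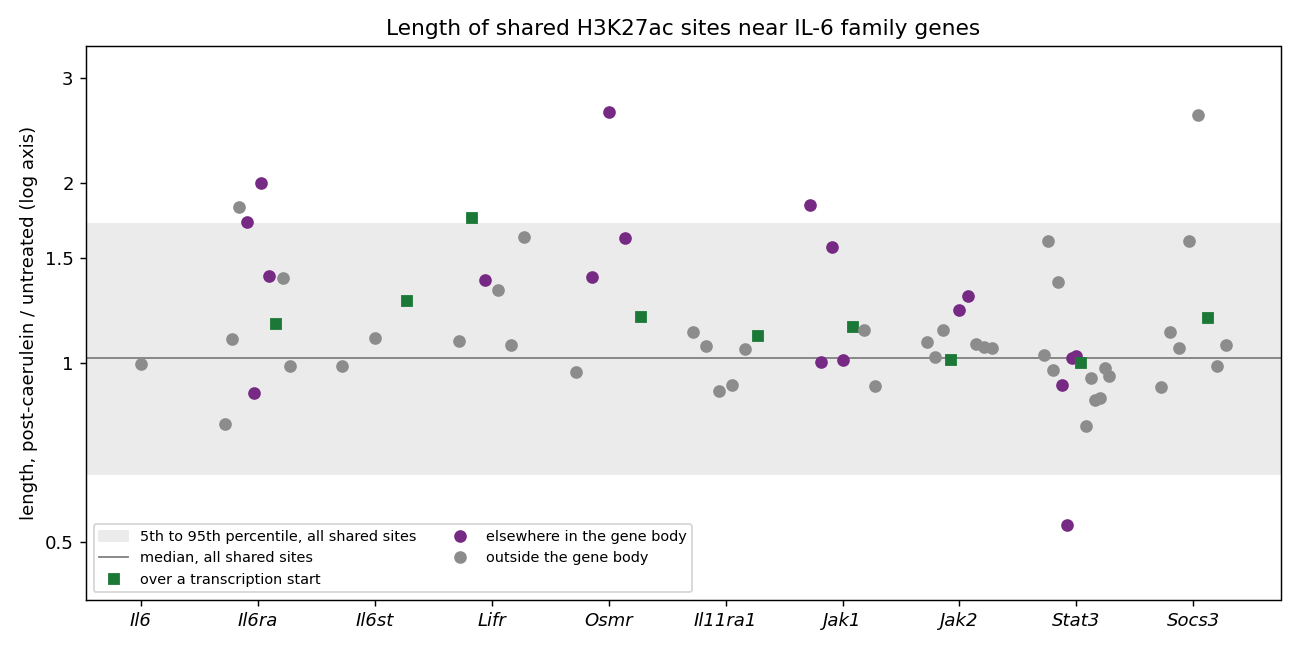
Length of each of the 70 shared sites in the post-caerulein list divided by its length in the untreated list (log axis), by gene, with squares for sites over a transcription start, purple circles for other sites in the body and grey circles for sites outside it. The grey band spans the 5th to 95th percentile of all shared sites (0.651 to 1.71), and the points above it are at Il6ra, Lifr, Osmr, Jak1 and Socs3, with 1 point below it at Stat3.

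Jak1, the Janus kinase used most by gp130 receptors, had the largest log2 ratio of covered length of the 10 genes when all peaks were counted (0.60). When peaks below the median score of their own list were dropped, its log2 ratio was 0.71, below those of Osmr (1.23) and Lifr (1.05). Untreated peaks scoring 469.62 and 286.73 were then dropped, and their post-caerulein partners, scoring 678.4 and 630.45, were kept. The Jak1 window held 26.62 kb of covered length after caerulein and 17.18 kb without, 1.52-fold with 1 kb added to both. This ratio was reached by 1085 of the 21887 genes. Inside the body the lengths were 18.71 and 9.33 kb, 1.91-fold. List-only peaks numbered 6 after caerulein against 1 without, with lengths of 8.45 and 1.23 kb, while shared sites came to 18.17 and 15.95 kb. Of all genes, 381 had a difference of 5 or more. All 6 post-caerulein-only peaks lay inside the body, 11.4 to 62.4 kb downstream of the start. Of these, 4 (6556 bp in all) fell in 1 stretch of 24.43 kb without an untreated peak, chr4:101235674-101260103. They measured 2282, 2224, 826 and 1224 bp and scored 148.27, 228.37, 50.21 and 77.88. The other 2, of 1076 and 821 bp, scored 73.39 and 50.68. So 2 of the 6 scored over 100, and 2 were within 1 score unit of the lowest value of the list. The untreated-only peak, chr4:101172556-101173787, measured 1232 bp, scored 80.92 and lay near the far end of the gene.

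Among the shared sites of Jak1, some differed and some did not. The start site measured 2687 against 2340 bp, a ratio of 1.15, and scored high in both lists (2602.73 and 2470.30). A body site of 3149 against 2011 bp, at one edge of the 24.43 kb stretch, had a ratio of 1.57, and one of 1932 against 1049 bp a ratio of 1.84. The sites of 1667 against 1666 bp and 1981 against 1960 bp differed by 1 and 21 bp. With equal numbers of the highest-scored peaks taken from both lists, the difference fell from 5 peaks to 3, and the window of Jak1 no longer passed 1.5-fold.

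Jak2, the related kinase, showed little difference. Covered length was 32.10 kb after caerulein and 29.25 kb without, and all 9 shared sites were longer in the post-caerulein list, by 1.01- to 1.29-fold. Around the start the post-caerulein list had 1 peak of 6111 bp and the untreated list 2 peaks of 2763 and 3284 bp, with a gap of 36 bp (chr19:29251731-29251766) just before the start, the bases in capitals above. The covered lengths of 6111 and 6047 bp differed by a ratio of 1.01, so the difference was in the number of peaks and not in the length. The list-only peaks were 1 of each kind: 753 bp after caerulein, 22.1 kb upstream, and 814 bp without, 5.029 kb downstream.

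Stat3, the transcription factor that the receptors activate, had nearly equal covered length in its window, 48.16 kb after caerulein and 48.24 kb without, a log2 ratio of -0.00. In the body it had 11.31 kb after caerulein and 12.30 kb without, a log2 ratio of -0.11, the lowest of the 10 genes. The start site measured 3706 bp after caerulein and 3710 bp without. Of its 15 shared sites 5 were longer in the post-caerulein list and 10 in the untreated list. A site inside the gene, 40.4 to 42.5 kb downstream of the start (untreated peak chr11:100897013-100899166), measured 1151 bp after caerulein and 2154 bp without. This ratio of 0.534 stood at percentile 2.4 of all shared sites and was the only one of the 70 to pass 1.5-fold towards the untreated list. On the other side, a site in the neighbouring Stat5b, another STAT gene, measured 1647 against 1029 bp, a ratio of 1.60. The 1 list-only peak, of 1424 bp with a score of 81.26 (post-caerulein), was nearest to Atp6v0a1.

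Socs3, the feedback inhibitor, lay in the most densely acetylated window of the 10: 65.53 kb or 32.1% after caerulein, and 55.55 kb or 27.2% without. The gene body of 4.258 kb was covered in full in both lists. Its start site, which holds the STAT palindrome printed above, was 1 peak of 13858 bp in the post-caerulein list (chr11:117957350-117971207). In the untreated list it was 2 peaks of 9460 and 2186 bp, for a length ratio of 1.19. Downstream of the gene, a site 16.2 to 21.8 kb from the start (chr11:117947558-117953152) measured 5595 against 2146 bp. Its ratio of 2.61 was exceeded among the 70 sites by the Osmr site alone and stood at percentile 99.1 of all shared sites. The next site, 26.2 to 29.6 kb from the start, measured 3416 against 2136 bp, a ratio of 1.60. Between them the post-caerulein list had a further peak of 1809 bp, with a score of 58.52, in a 5.872 kb gap of the untreated list. The larger domains upstream at Pgs1 were alike, at 16511 against 16730 bp and 10870 against 10141 bp.

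The wider pathway was followed in 59 further genes: other ligands and receptor chains, kinases, STATs, inhibitors and targets. Of these, 28 (47.5%) leaned to the post-caerulein list by list-only peaks, 14 (23.7%) leaned to the untreated list and 17 were even, against 30.0% and 26.8% over all genes. These peaks were again weak: 3 genes had a post-caerulein-only peak at or above the median score of its list, and 1 gene an untreated-only one. The 3 genes were Lif, Osm and Socs2. The windows of Lif and Osm overlap, so the same peak may count for both. No share over all genes is given for such peaks. The windows of Cntfr (with Il11ra1), Birc5 (with Socs3), Stat5a and Stat5b (both with Stat3) hold peaks already described for those members. Leaving these 4 out, 26 of 55 genes leaned to the post-caerulein list and 14 to the untreated list. No gene of this list passed 1.5-fold in covered length in either direction, and the median log2 ratio was 0.06. Over all genes, 5.24% passed it towards the post-caerulein list and 5.03% towards the untreated list. Of the 44 genes with a start in the table, 36 were marked after caerulein and 34 without. Over all 17492 genes with a start, 54.9% and 54.1% were marked. By role, 6 of 9 ligands leaned to the post-caerulein list and 2 to the untreated list. Lif and Osm, with their overlapping windows, were both among the 6. Among targets the numbers were 12 and 5 of 24, and among inhibitors and adaptors 7 and 5 of 14. The 6 other STAT genes did not lean to the post-caerulein list: Stat6 leaned to the untreated list and 5 were even.

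The 8 genes of this list with the largest differences went in both directions. Vegfa, the vascular growth factor gene, had 8 untreated-only peaks, 1 of them at or above the median score of its list, and no post-caerulein-only one. Its covered length was 64.4 kb in the post-caerulein list and 89.5 kb in the untreated list. Hif1a, the hypoxia-responsive factor, showed the reverse, with 8 list-only peaks after caerulein and 1 without, and 55.1 against 38.9 kb covered. Stat6, the STAT of interleukin-4 signalling, had 3 untreated-only peaks and no other, with 36.6 against 40.5 kb. The inhibitor genes Socs5 (4 against 0 list-only peaks), Pias1 (3 against 0) and the phosphatase gene Ptpn1 (4 against 2) leaned to the post-caerulein list. So did the ligand genes Il27 (3 against 0) and Lif (4 against 2). Lif, the ligand of the Lifr chain, had a covered length of 60.9 against 46.9 kb, and 1 of its post-caerulein-only peaks scored above the median of the list. Its window overlaps that of Osm, the ligand of the Osmr chain, so both genes share peaks.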

How the data were processed

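H3K27ac was measured by chromatin immunoprecipitation and sequencing in 2 libraries, 1 per condition. Tools listed in the submitters' processing notes, without their roles, are Trimmomatic 0.38, Bowtie2 2.2.6, SAMtools and MACS 1.4. The build is given there as GRCm38, also called mm10. The control library and the caller's options are not given in the sources used here. The deposited lists give, for each peak, a position and a score made by the authors' peak caller on 1 library. No header defines the score, so it ranked and filtered peaks within its own list only. Peaks were thus not called on pooled samples, and depth is unknown.

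Genes, starts and promoters came from RefSeq tables of GRCm38.p6. A start was taken from the promoter table, which covers 79.9% of protein-coding genes, and counted as marked with a peak within 1 kb. Exons were not used here. Overlaps (at least 1 bp) were checked against bedtools 2.31.1, and the scripts (Python 3.11.15, pandas 2.3.3, scipy 1.17.1) were tested on simulated data. Covered length is the union of peaks in a window, its ratio uses a pseudocount of 1 kb, and 1.5-fold counts as a difference. Intervals are exact 95% binomial ones. The members, gene lists, motifs and comparisons were chosen with earlier results of these data known. All 10 members are named, and of the 59 wider genes the 8 with the largest difference in list-only peaks, ties by covered length. Alternatives varied the overlap, window, score limit, number of peaks, merging and pseudocount.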

Additional observations from a re-analysis of the deposited data

How the results depend on the processing

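No paired analysis was possible because there is only 1 library per condition, and for the same reason none was left out. The lists hold no counts, so the limits set by depth are unknown. Of the list-only peaks, 12 of 16 and 2 of 4 scored under 100, near the lowest score of the lists. No such share is given for all list-only peaks.

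The post-caerulein-only and untreated-only peaks, 16 and 4, numbered 14 and 5 with equal numbers of the highest-scored peaks, 18 and 4 when a shared peak had to be covered over 50% of its length, and 15 and 4 when neighbours up to 1 kb apart were taken as shared. They numbered 13 and 4 with peaks merged within 1 kb, 11 and 3 within 50 kb, 12 and 3 with the member as the nearest gene, 9 and 2 within 10 kb, 9 and 2 in the body alone, and 0 and 0 at or above the median score of each list. Held to a score of at least 100, a limit chosen after seeing the data, they numbered 4 and 2. No share over all peaks is given for these alternatives.

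Members with more post-caerulein-only peaks, 7, numbered 4 with merged peaks, 4 within 50 kb, 4 by nearest gene, 3 within 10 kb, 3 in the body, 3 at a score of at least 100 and 0 at or above the median score. Members with more untreated-only peaks, 0, numbered 1 within 50 kb, 1 within 10 kb, 1 in the body, 1 by nearest gene and 2 at a score of at least 100. No share over all genes is given for these alternatives. Il6st turned to the untreated side, at -1 peak, within 50 kb, by nearest gene and at a score of at least 100, and Lifr did so, at -1 peak, at that score.

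Members with 1.5-fold more covered length after caerulein, 1, numbered 0 with a pseudocount of 5 kb and 0 with equal numbers of peaks. They numbered 2 within 50 kb, 3 within 10 kb, 3 in the body and 4 with peaks at or above the median score (Osmr, Lifr, Jak1 and Il6ra). In those 4 windows the median limit dropped untreated peaks of shared sites whose post-caerulein partners were kept. Of all genes with a peak in the body, 9.16% passed 1.5-fold there. No share over all genes is given for the other alternatives. These counts are therefore not read as particular to the members. Starts were marked at 9 members in both lists for a distance of 2.5 kb or for a covering peak. The number was 8 when either end of the body was used, with Lifr lost, an alternative chosen after seeing the data. Sites at least 1.5-fold longer numbered 10 after caerulein and 1 without when peaks were merged, and 12 and 1 with equal numbers, both also chosen after seeing the data. No share over all shared sites is given for either. For all of these the cause was not tested.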
